A study of Mus musculus with 4 samples.

Results

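Neutrophils made up 74 of the 40869 cells that passed the quality filters in 4 single-cell RNA libraries of CD11b+ CD45+ cells sorted from mouse brain. Members were chosen by measured values: a passing cell (200 to 6000 genes, at most 10% mitochondrial UMIs) was called a neutrophil when it held 5 or more unique molecular identifiers (UMIs, each standing for 1 captured RNA molecule) of S100a8 and 5 or more of S100a9. Levels of these 2 genes are therefore given as description only. The rule found 25 neutrophils in PRMT1FL mouse 1, 47 in PRMT1FL mouse 2, 0 in PRMT1Cx3cr1-KO mouse 1 and 2 in PRMT1Cx3cr1-KO mouse 2.

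Each library came from 1 C57BL/6 mouse, with 2 mice per genotype. PRMT1FL mice, named wild type in the sample labels, carried the floxed Prmt1 allele, and PRMT1Cx3cr1-KO mice carried it together with the tamoxifen-inducible Cx3cr1 CreERT recombinase, which acts in microglia and other cells that express Cx3cr1 and is not specific to neutrophils. All groups received tamoxifen at 5 to 6 wk of age and then a 0.2% cuprizone diet for 5 wk, a copper chelator that kills oligodendrocytes and strips myelin. This age at tamoxifen follows the study's methods, which start the diet 2 wk later. The sample labels give 5 to 6 wk as the age at the diet. Brains were perfused with PBS, dissociated, cleared of myelin on Percoll and sorted, so the cells counted here are those that passed the perfusion and the gate. The study's methods name CD45+ for these libraries and intermediate CD45 for its microglia sorts, and how high the gate reached in CD45, which sets how many neutrophils it lets through, is not given in the sources used here. The 4 libraries held 91306165, 76943248, 85874289 and 99559644 UMIs in 11554, 8284, 10498 and 11029 barcodes, of which 11427, 8170, 10370 and 10902 passed (PRMT1FL mice 1 and 2, then PRMT1Cx3cr1-KO mice 1 and 2).

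Neutrophils are short-lived granulocytes made in bone marrow, where they pass from proliferating precursors through cells that fill secondary granules with Camp, Ngp and Ltf to mature cells that leave for the blood. S100a8 and S100a9 encode the subunits of calprotectin, a calcium- and zinc-binding complex that is the most abundant protein of the neutrophil cytosol. The healthy brain parenchyma holds very few neutrophils, and brain preparations can also carry them from vessels, meninges or skull marrow. Mature neutrophils carry CD11b and high CD45.

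The promoters of the rule's genes, of the mature neutrophil gene Retnlg and of the 3 genes with the highest mean ratio of neutrophils over other cells (Ngp, Camp and Lcn2) are shown because these genes set the neutrophils apart from the other cells. RefSeq windows on GRCm38.p6 ran from 250 bases before to 50 bases after the gene start. They were chr3:90668821-90669120 on the plus strand for S100a8, chr3:90695672-90695971 on the minus strand for S100a9, chr16:48872358-48872657 on the plus strand for Retnlg, chr9:110419558-110419857 on the plus strand for Ngp, chr9:109849407-109849706 on the minus strand for Camp and chr2:32387690-32387989 on the minus strand for Lcn2. Capitals mark matches, on either strand, to TTGCNNAA, a form of the C/EBP site, or to GAGGAAGT, a form of the PU.1 site.
S100a8: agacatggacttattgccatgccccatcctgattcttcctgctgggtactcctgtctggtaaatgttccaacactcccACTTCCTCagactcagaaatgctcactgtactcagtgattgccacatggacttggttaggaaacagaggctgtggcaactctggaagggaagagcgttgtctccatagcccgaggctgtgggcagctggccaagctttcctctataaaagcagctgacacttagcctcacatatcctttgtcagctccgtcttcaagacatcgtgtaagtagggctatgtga
S100a9: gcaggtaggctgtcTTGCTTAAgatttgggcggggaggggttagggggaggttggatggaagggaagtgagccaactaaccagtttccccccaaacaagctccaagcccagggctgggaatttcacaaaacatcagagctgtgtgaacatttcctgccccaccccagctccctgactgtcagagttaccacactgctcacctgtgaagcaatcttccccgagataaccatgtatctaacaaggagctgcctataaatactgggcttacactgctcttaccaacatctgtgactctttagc
Retnlg: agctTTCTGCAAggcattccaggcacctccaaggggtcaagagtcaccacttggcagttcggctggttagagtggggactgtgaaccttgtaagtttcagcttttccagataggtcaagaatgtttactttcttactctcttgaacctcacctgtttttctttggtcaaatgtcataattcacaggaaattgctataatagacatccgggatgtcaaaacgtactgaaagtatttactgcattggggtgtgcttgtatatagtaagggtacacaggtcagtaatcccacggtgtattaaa
Ngp: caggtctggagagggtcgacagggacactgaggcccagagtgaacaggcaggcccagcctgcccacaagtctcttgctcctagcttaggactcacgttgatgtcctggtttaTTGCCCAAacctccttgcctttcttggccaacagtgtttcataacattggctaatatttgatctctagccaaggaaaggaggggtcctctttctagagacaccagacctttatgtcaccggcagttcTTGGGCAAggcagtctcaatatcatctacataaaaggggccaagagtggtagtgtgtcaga
Camp: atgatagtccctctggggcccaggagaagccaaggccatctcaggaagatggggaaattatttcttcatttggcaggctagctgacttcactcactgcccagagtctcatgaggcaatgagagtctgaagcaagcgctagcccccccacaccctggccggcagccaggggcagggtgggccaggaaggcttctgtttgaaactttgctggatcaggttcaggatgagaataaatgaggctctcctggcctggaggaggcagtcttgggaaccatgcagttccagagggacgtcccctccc
Lcn2: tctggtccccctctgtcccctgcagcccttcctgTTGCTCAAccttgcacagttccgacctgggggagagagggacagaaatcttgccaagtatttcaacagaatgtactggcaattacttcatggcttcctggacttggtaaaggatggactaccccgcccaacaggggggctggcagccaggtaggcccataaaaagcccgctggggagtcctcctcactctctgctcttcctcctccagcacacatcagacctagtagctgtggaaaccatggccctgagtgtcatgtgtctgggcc

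A TTGCNNAA match occurred in 4 of these 6 windows (Ngp had 2 matches) and in 10.8% of all 32851 windows in the table. A GAGGAAGT match occurred in the S100a8 window and in 3.20% of all windows. The 2 motifs did not overlap in these windows, and the Camp window held neither. In the GENCODE M21 annotation of the same genome S100a8 spans chr3:90668978-90670035 and S100a9 chr3:90692632-90695721 on opposite strands, while Camp, Ngp and Ltf all lie on chromosome 9.

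The first question was how many neutrophils each genotype held. Neutrophils were 0.219% of passing cells in PRMT1FL mouse 1 (95% exact binomial interval 0.142 to 0.323) and 0.575% in PRMT1FL mouse 2 (0.423 to 0.764). They were 0.0183% in PRMT1Cx3cr1-KO mouse 2 (0.00222 to 0.0663), and 0% in PRMT1Cx3cr1-KO mouse 1, where the interval reached 0.0356% and a limit of 3 cells in 10370 is 0.0289%. The shares of the genotypes did not overlap, although the PRMT1FL mice themselves differed 2.63-fold. Mean shares were 0.397% ± 0.252 (SD, n = 2) in PRMT1FL and 0.00917% ± 0.0130 (SD, n = 2) in PRMT1Cx3cr1-KO, a difference of 0.388 percentage points. The two-sided exact permutation test over the 4 mice gave p = 0.333, the smallest that 2 against 2 allows, so the design could not show a difference at the usual threshold. Pooled over mice, 72 of 19597 PRMT1FL cells and 2 of 21272 PRMT1Cx3cr1-KO cells were neutrophils, a ratio of 39.1 with a counting interval of 10.4 to 329 that covers counting error only and not the spread between mice.

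**Figure D1:**
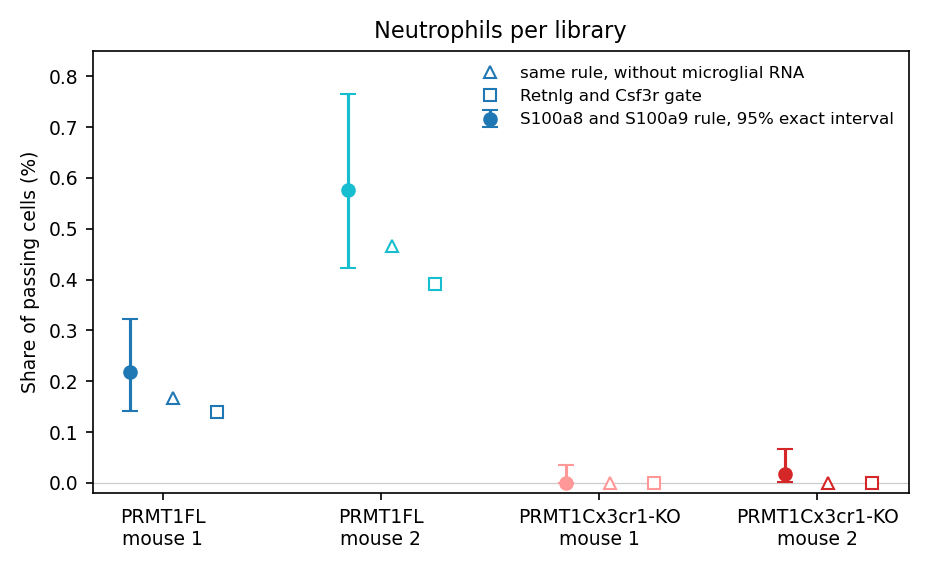
Share of passing cells (%) called neutrophils in each of the 4 libraries. Filled circles are the S100a8 and S100a9 rule with 95% exact binomial intervals, triangles the same rule without cells that held microglial RNA, and squares a gate on Retnlg and Csf3r; both PRMT1FL mice sit above both PRMT1Cx3cr1-KO mice by each of the 3 definitions.

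A gate on genes that the rule did not use gave the same order of the genotypes and of the PRMT1FL mice, but it is no independent count. The neutrophils of the rule held 464 of 464 and 2542 of 2544 Retnlg UMIs of the PRMT1FL mice. Neutrophils with granule RNA but no Retnlg, such as the larger cell of PRMT1Cx3cr1-KO mouse 2 described below, are missed by it. A gate of 2 or more Retnlg and 1 or more Csf3r UMIs, Retnlg being a resistin-like gene of mature neutrophils and Csf3r the G-CSF receptor, held 16, 32, 0 and 0 cells (0.140% and 0.392% of passing cells in the PRMT1FL mice). The threshold itself mattered little, because nearly every cell had either none of one of the genes or 50 or more of both. The smaller of the 2 counts was 50 or more in 24, 45, 0 and 1 neutrophils, and no neutrophil lay between 5 and 9. Just inside the rule were a cell of 693 UMIs in PRMT1FL mouse 1 with 37 S100a8 and 22 S100a9 UMIs and a cell of 5286 UMIs in PRMT1Cx3cr1-KO mouse 2 with 14 and 16. Just outside it was a cell of 1146 UMIs in PRMT1FL mouse 2 with 5 S100a8, 3 S100a9, 42 Il1b and 2 Cxcr2 UMIs. One further barcode of PRMT1FL mouse 2 had 5 or more of both genes but failed the filters.

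Other measures moved with the share of neutrophils, and their part in it was not tested. RNA of red blood cells, the most abundant blood cell, was also higher in the PRMT1FL libraries: the 5 erythroid genes summed to 237 CPM (the usual abbreviation for UMI counts scaled to one common total per sum) in the other cells of PRMT1FL mouse 1 and 91.6 in PRMT1FL mouse 2, but 0.0605 and 0.0208 in the PRMT1Cx3cr1-KO mice. Hbb-bs, the most abundant of them, was at 133, 52.0, 0.0605 and 0 CPM, and Hba-a1 and Alas2 were at 0 in both PRMT1Cx3cr1-KO libraries. An erythroid UMI was found in 138, 13, 4 and 2 passing cells. In PRMT1FL mouse 2 a single cell held 6850 of the 6862 erythroid UMIs, and without it 12 were left, against 5 and 2 in the PRMT1Cx3cr1-KO mice; in PRMT1FL mouse 1 the highest cell held 22.3%. Within PRMT1FL the order was the reverse of that of the neutrophils, with more erythroid RNA in mouse 1 and more neutrophils in mouse 2. Monocytes, chosen by 2 or more Ly6c2 and 1 or more Ccr2 UMIs, numbered 3, 6, 0 and 1. The 6 genes of the monocyte list summed to 217, 180, 308 and 316 CPM in the other cells, but most of this was Fn1, at 198, 154, 290 and 295. Ly6c2 (0.311, 1.99, 0.0242 and 0.125 CPM), Plac8 (0.844, 2.58, 0.315 and 0.729) and F13a1 (4.85, 5.94, 2.90 and 4.46) were higher in both PRMT1FL mice. Ccr2 and Ms4a4c overlapped between the genotypes. Border macrophages, chosen by 2 or more Mrc1 and 2 or more Pf4 UMIs, did not follow the order of the neutrophils, with 104, 82, 70 and 121 cells. The 6 neural and vascular genes were at 102, 75.2, 113 and 20 CPM in the other cells. Those cells had median depths of 6071, 6937, 6233 and 6960 UMIs, which did not separate the genotypes.

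The genotypes were then compared on UMIs summed over all passing cells of a library, a test chosen after the counts of neutrophils had been seen. In such sums fewer neutrophils and less RNA per neutrophil cannot be told apart. Prmt1 itself was lower in PRMT1Cx3cr1-KO (log2 fold change -0.35, adjusted p = 0.044, edgeR quasi-likelihood, adjusted by Benjamini and Hochberg over all genes). Its raw UMIs overlapped, at 8205 and 6311 in the PRMT1FL and 5809 and 6780 in the PRMT1Cx3cr1-KO libraries. In CPM of the other cells they did not, at 91.0 and 84.0 against 70.3 and 70.6. With edgeR it missed the threshold with library sums alone as size (adjusted p = 0.0531). It passed in edgeR with the replicate block (adjusted p = 0.0228) and with every gene kept (0.00655), and in DESeq2 (0.00285). Leaving out each library in turn, which leaves 1 mouse in a genotype, gave log2 fold changes from -0.41 to -0.29. Whether the counted 3′ end lies in the deleted part is not given in the sources used here. Over all 14757 genes tested 3.76% were lower and 1.31% higher in PRMT1Cx3cr1-KO.

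Genes of neutrophils are given from these sums as UMIs with no test, since the sums hold the neutrophils already counted and several of the genes had enough UMIs only in the PRMT1FL libraries. Retnlg had 464 and 2544 UMIs in the PRMT1FL and 0 and 1 in the PRMT1Cx3cr1-KO libraries. Ly6g had 64, 178, 0 and 1, and Lcn2 1271, 2950, 52 and 265. For Camp the UMIs were 2083, 6044, 0 and 862 and for Ngp 3092, 7862, 0 and 1072, those of PRMT1Cx3cr1-KO mouse 2 being nearly all from 1 cell described below. Csf3r, which microglia share, was even, at 11541, 10462, 10821 and 11384. Of the 30 granule and mature neutrophil genes with enough UMIs, 24 had a log2 fold change below 0 in PRMT1Cx3cr1-KO. Slpi (483, 657, 744 and 2537 UMIs), Trem1 (168, 119, 195 and 241), Msrb1, Adam8, Mxd1 and Clec4d went the other way. The median of the 30 was -3.03, against -0.0013 over all genes tested. These directions restate the counts of neutrophils. Without the neutrophils 19 genes of these lists had enough UMIs, 11 of them below 0, with a median of -0.10. The erythroid gene Hbb-bs had 11971, 3896, 5 and 0 UMIs, nearly all of those of PRMT1FL mouse 2 being from the single cell with most erythroid RNA.

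**Figure D2:**
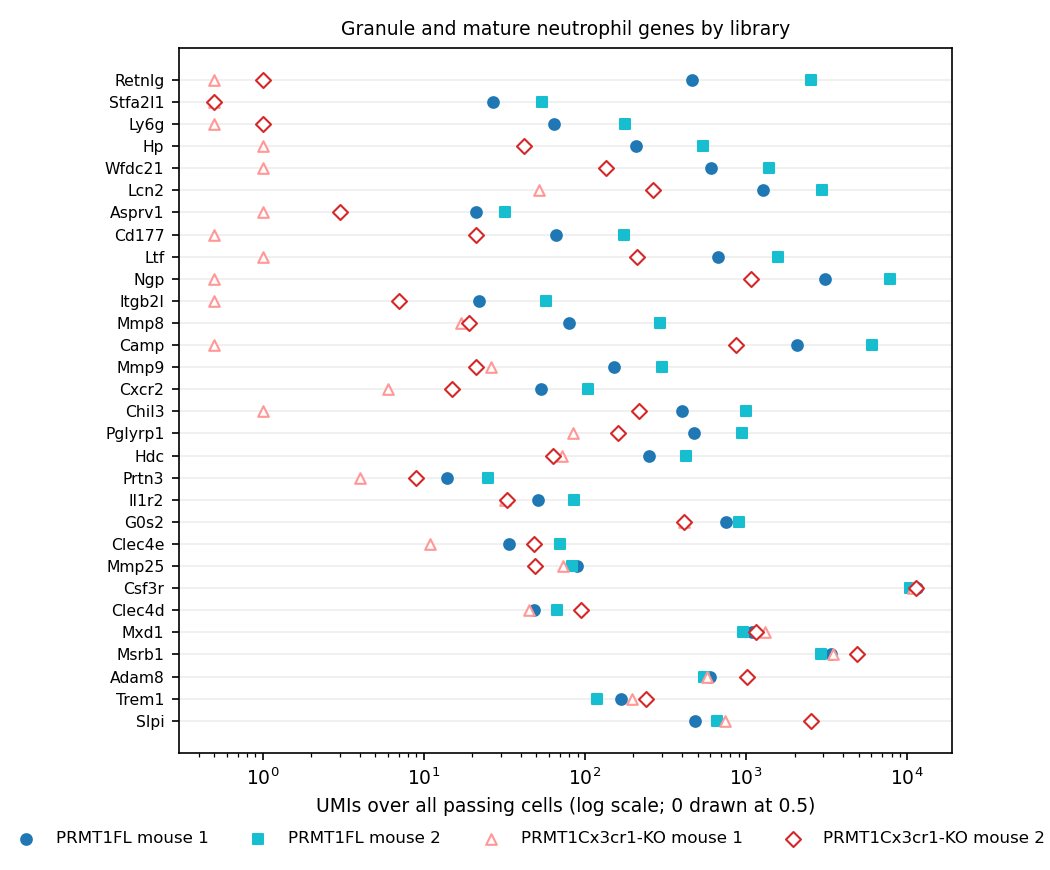
UMIs over all passing cells (log scale, 0 drawn at 0.5) of 30 granule and mature neutrophil genes with enough UMIs for the fit, in PRMT1FL (filled) and PRMT1Cx3cr1-KO (open) libraries, ordered by fold change. Retnlg, Stfa2l1 and Ly6g have at most 1 UMI in each PRMT1Cx3cr1-KO library, and the sums include the neutrophils.

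Not every member was a neutrophil alone. In 17 of the 74 cells the 14 microglia genes, among them the complement genes C1qa, C1qb and C1qc, took more than 1/4 of their median share in the other cells of the library. These cells numbered 6 in PRMT1FL mouse 1, 9 in PRMT1FL mouse 2 and 2 in PRMT1Cx3cr1-KO mouse 2, so that both neutrophils of the PRMT1Cx3cr1-KO mice were among them. The remaining 57 cells all came from PRMT1FL mice (19 and 38), and 0 of 21272 PRMT1Cx3cr1-KO cells allows a share of up to 0.0141%. By this division microglia genes took at most 0.625% of UMIs in the 57 cells and at least 2.04% in the 17, with no cell between, against medians of 5.01% to 6.07% in the other cells of the 4 libraries. The 57 cells had a median of 3018 UMIs (range 693 to 16322) and the 17 a median of 10636 (3192 to 35574). C1qa, a microglial complement gene and like Cx3cr1 one of the 14 that made the division, had 50 UMIs in the median cell of the 17 and at least 6 in each, and 0 in the median cell of the 57 with at most 2. Cx3cr1 was found in 15 of the 17 cells and, at 1 UMI each, in 3 of the 57. How the 17 cells came to hold RNA of both kinds was not tested. Scrublet, a doublet caller, marked 0, 2, 4 and 3 passing cells of the 4 libraries, too few for it to have worked, and none of the neutrophils.

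**Figure D3:**
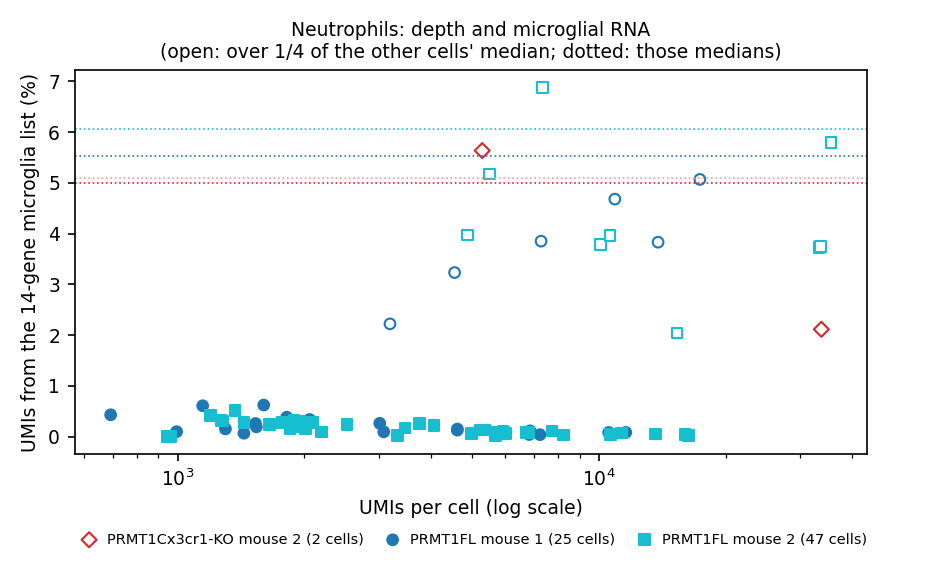
Each of the 74 neutrophils by its UMIs (log scale) and the share of its UMIs from the 14-gene microglia list (%). Open symbols are the 17 cells above 1/4 of the other cells' median, dotted lines those medians for the 4 libraries; the 57 filled symbols all lie at or below 0.625%.

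The 2 cells of PRMT1Cx3cr1-KO mouse 2 were unlike each other. The smaller had 5286 UMIs, 14 of S100a8 and 16 of S100a9, with 5.64% microglia genes. It held 1 Ngp and 1 Mmp8 UMI and no Camp, Ltf, Lcn2 or Retnlg UMI. The larger had 33769 UMIs, among them 4042 of S100a8, 2905 of S100a9, 1071 of Ngp, 860 of Camp, 237 of Lcn2 and 209 of Ltf, with 2.12% microglia genes. It held 41 Fcnb and 7 Mki67 UMIs and no Retnlg, Il1b or Cxcr2 UMI. Only the larger cell thus had granule genes of a neutrophil at more than single UMIs, and the label rests almost only on the 2 genes of the rule in the smaller one.

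The label was next compared with markers and with the other passing cells. For each library with neutrophils, UMIs were summed over the neutrophils and over all other passing cells and expressed as CPM, and the log2 ratio was taken after adding 10 CPM to both. Of 5410 genes, 159 (2.94%) were 2-fold or more higher and 346 (6.40%) 2-fold or more lower in the neutrophils of all 3 libraries. In the 2 PRMT1FL mice alone, where the 72 cells are, 369 of 5333 genes (6.92%) were higher and 796 (14.9%) lower. No test is attached, since cells were chosen by their RNA, and the 2 PRMT1Cx3cr1-KO cells weigh as much as 25 or 47 cells in the count over 3 libraries.

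Secondary granule genes led the list. All 10 of them were higher in all 3 libraries, with a median log2 ratio of 8.07 against -0.62 for all genes tested. For Mmp8 the call in PRMT1Cx3cr1-KO mouse 2 rested on 1 UMI. Ngp, a cathelin-related granule protein of neutrophils, was at 23814 and 23267 CPM in the neutrophils of the PRMT1FL mice and 27449 in PRMT1Cx3cr1-KO mouse 2, and at no more than 0.17 in the other cells, a mean log2 ratio of 11.26. Camp, the cathelicidin antimicrobial peptide, was at 16009, 17904 and 22020 CPM (mean log2 ratio 10.85). Lcn2, which binds bacterial siderophores, followed at 9462, 8641 and 6068, and Ltf, the iron-binding lactoferrin, at 5121, 4633 and 5351. The chitinase-like Chil3, the peptidoglycan-binding Pglyrp1, haptoglobin (Hp) and Cd177 had mean log2 ratios of 8.39, 7.75, 6.74 and 5.55. All 8 stood far above the other cells in each library.

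The 25 genes with the highest mean log2 ratio, S100a8 and S100a9 apart, held further genes of neutrophils and their precursors. Wfdc21 was at 4627, 4067 and 3431 CPM in neutrophils, Anxa1, an anti-inflammatory annexin, at 1774, 1595 and 768, and S100a11, a calcium-binding relative of the rule's genes, at 2236, 2615 and 615. Fcnb, a ficolin of granulocyte precursors, was at 247, 196 and 1050. Cebpe, the transcription factor that drives secondary granule genes, was at 201, 187 and 461 and at most 0.11 in the other cells. Ly6g, the surface antigen used to define mouse neutrophils, was at 494, 519 and 25.6, the last being 1 UMI. Mmp8, neutrophil collagenase, was at 501, 756 and 25.6, the last again being 1 UMI. Ltb4r1, the leukotriene B4 receptor, was at 231, 193 and 128. The other genes of the 25 were Ifitm6, Ly6c2, G0s2, Lrg1, Serpinb1a, Cd24a, Gda, Chil1 and Rflnb, with mean log2 ratios from 4.34 (Rflnb) to 6.17 (Ifitm6).

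Mature neutrophil genes were also high in the PRMT1FL neutrophils. Of 17 mature genes tested, 16 were higher in both PRMT1FL mice and 5 in all 3 libraries; most had no UMI or too few in the 2 PRMT1Cx3cr1-KO cells. Retnlg was at 3578 and 7535 CPM in the PRMT1FL neutrophils and had no UMI in the PRMT1Cx3cr1-KO cells. The chemokine receptor gene Cxcr2, which draws neutrophils to CXC chemokines, was at 332 and 282 CPM, and the histamine-producing enzyme gene Hdc at 1149 and 889, again with no UMI in the PRMT1Cx3cr1-KO cells. Cxcr2 was found in 13 of 19 and 27 of 38 neutrophils without microglial RNA, against 9 of 11402 and 8 of 8123 other cells of the same mice. Csf3r was less specific: it had a UMI in 53.2% and 59.0% of the other cells of the PRMT1FL mice (6.33% and 6.999% expected once each cell is thinned to 500 UMIs) and in 78.9% and 84.2% of the neutrophils without microglial RNA (38.1% and 37.8% thinned). The exception among the 17 was Stfa1, with 0 UMIs in PRMT1FL mouse 1 and 29 in PRMT1FL mouse 2. Of the 3 tertiary granule genes, which encode gelatinase-granule proteases, all were higher in both PRMT1FL mice, Mmp9 at 979 and 872 CPM against at most 0.27 in the other cells of these mice.

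Receptors and enzymes of neutrophil function were partly shared with microglia. Among 13 chemotaxis and adhesion genes 8 were higher in both PRMT1FL mice and none was lower. The formyl peptide receptor genes Fpr1 (131 and 77.1 CPM) and Fpr2 (162 and 210) were at most 0.07 in the other cells of these mice. The integrin genes Itgam, which encodes CD11b of the sort, and Itgb2 stood at similar levels in both, Itgam at 478 and 510 CPM in neutrophils and 532 and 510 in other cells. Of 6 NADPH oxidase genes 4 were higher, among them the catalytic subunit gene Cybb at 640 and 866 CPM against 73.4 and 78.3. Among 9 cytokine genes tested, 4 were higher and 3 lower. Il1b, encoding interleukin-1 beta, was at 3478 and 1862 CPM against 618 and 614, while the chemokine genes Ccl3 (540 and 421 against 1461 and 1451) and Ccl4 (1280 and 768 against 2753 and 2831) were lower. Without the cells that held microglial RNA the counts were 3 higher and 4 lower, where 7.34% of all genes were higher and 39.7% lower. Cxcl2 was no longer higher in both mice (55.2 and 453 CPM), Tnf was lower, and Ccl3 stood at 0 and 22.1 CPM and Ccl4 at 221 and 27.6. Among 7 interferon-response genes tested the 4 Ifitm genes were higher, Ifitm6 at 1249 and 1980 CPM, and Isg15, Ifit3 and Rsad2 were not, at 84.8 and 44.5, 23.1 and 17.8, and 77.1 and 41.5 CPM in neutrophils. The transcription factor genes Cebpe and Cebpd were higher, and Gfi1 had no UMI in any neutrophil.

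**Figure D4:**
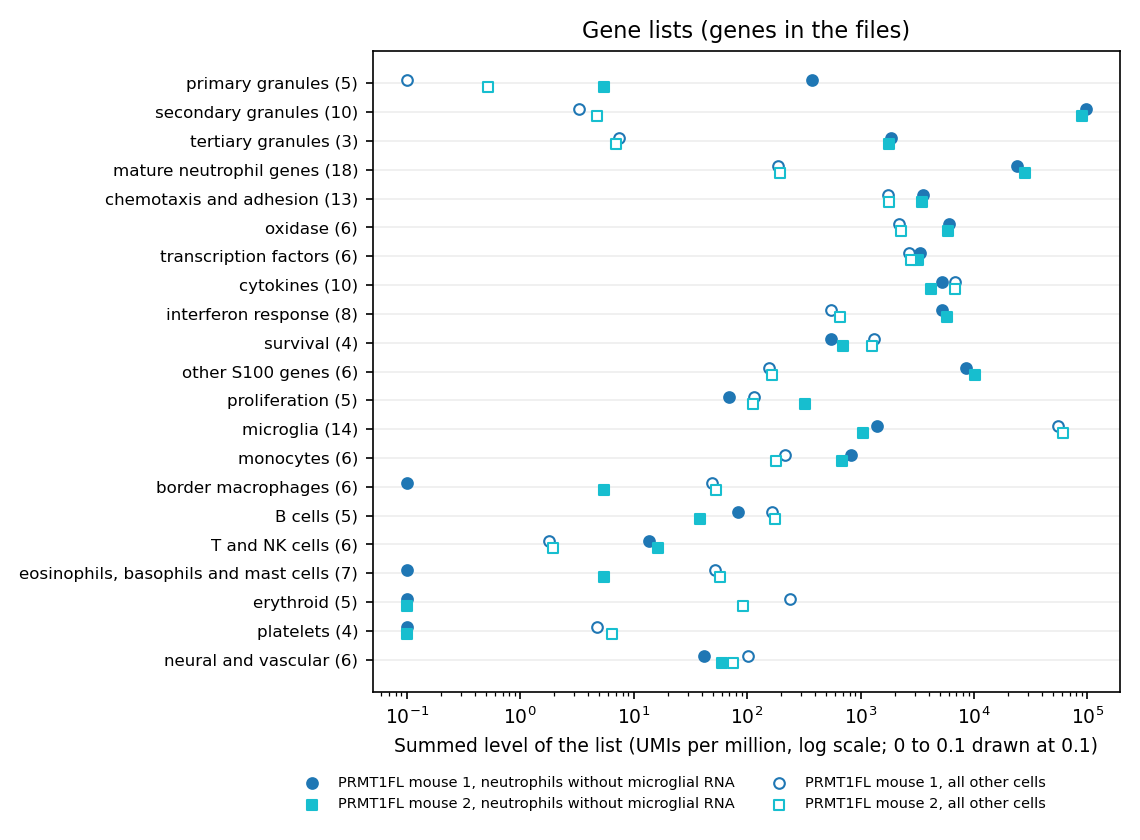
Summed level of each gene list in CPM (log scale) in neutrophils without microglial RNA (filled) and in all other passing cells (open) of PRMT1FL mouse 1 (circles) and mouse 2 (squares), with the number of genes in brackets. Secondary granule genes are at 96739 and 89119 in the neutrophils and 3.30 and 4.71 in the other cells.

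Over all neutrophils the 14 microglia genes summed to 19456, 20320 and 25938 CPM in the 3 libraries, against 55488, 60412 and 50137 in the other cells, and in the 57 cells chosen for little of this RNA to 1406 and 1049. None of the 5 erythroid and none of the 4 platelet genes had a UMI in any of the 74 neutrophils. The monocyte genes Ccr2 and Ms4a4c had none either, whereas Plac8 and Ly6c2 were higher than in the other cells in all 3 libraries. Ly6c2, which early neutrophils share with monocytes, was at 370 and 424 CPM in the PRMT1FL neutrophils. The 10 cells of the monocyte gate held no Retnlg, Ngp, Camp or Cxcr2 UMI, and S100a4 at 1715, 1743 and 1684 CPM in the 3 libraries that had them. S100a4 and S100a10 had no UMI in any neutrophil. S100a6 was at 3948 and 4043 CPM in PRMT1FL neutrophils and also at 5218 and 3485 in the monocyte gate of the same mice.

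The 10 genes lowest in neutrophils, of those lower in all 3 libraries, were led by Cxcl10. Cxcl10, an interferon-induced chemokine gene, was at 23.1, 5.93 and 0 CPM in neutrophils and 252, 210 and 196 in other cells. Cd74, the MHC class II invariant chain, was at 378, 65.2 and 0 against 871, 1124 and 169, and H2-Aa, an MHC class II chain, at 30.8, 0 and 0 against 179, 230 and 41.4. Cd180, Rgs1, Csf1, Dab2, G3bp1, Wdr43 and Ccl2 completed the 10, with mean log2 ratios from -2.76 (Cd180) to -2.51 (Ccl2). The neutrophil levels of PRMT1Cx3cr1-KO mouse 2 came from 2 cells with 39055 UMIs together, where 1 UMI is 25.6 CPM. A level of 0 there says little for a gene as low in the other cells as H2-Aa. Without the 17 cells that held microglial RNA 2093 genes were lower in both PRMT1FL mice, against 796 with them.

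Neutrophils without microglial RNA did not form a single state, and their granule genes, Retnlg and Il1b followed one another. The following bins by the share of UMIs from the 10 secondary granule genes were set after the cells had been seen. Camp, Ngp and Ltf are among these 10 and so follow the bins by construction, whereas Retnlg and Il1b are not among them. In 25 cells (9 and 16 per PRMT1FL mouse) the share was under 1%, and no cell had a Camp, Ngp or Ltf UMI. These cells were shallow, with a median of 1530 UMIs and 627 genes, and had the most Il1b, at a median of 13.9 per 1000 UMIs with a UMI in 23 of 25 cells. In 11 cells (3 and 8) with a share of 1 to 4% Retnlg was highest, at a median of 34.9 per 1000 UMIs (range 6.06 to 58.1) against 2.09 in the 25 cells, and Il1b was at 2.40. In 7 cells (1 and 6) with a share of 4 to 11% every cell had Camp, Ngp and Ltf and also Retnlg, at a median of 20.3 per 1000 UMIs, and no cell had an Il1b UMI. In 14 cells (6 and 8) with a share of 11% or more Camp and Ngp took a median of 39.2 and 56.9 per 1000 UMIs, Retnlg fell to 0.290, and 1 cell had Il1b. The same succession was present in each mouse where a bin held more than 1 cell.

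**Figure D5:**
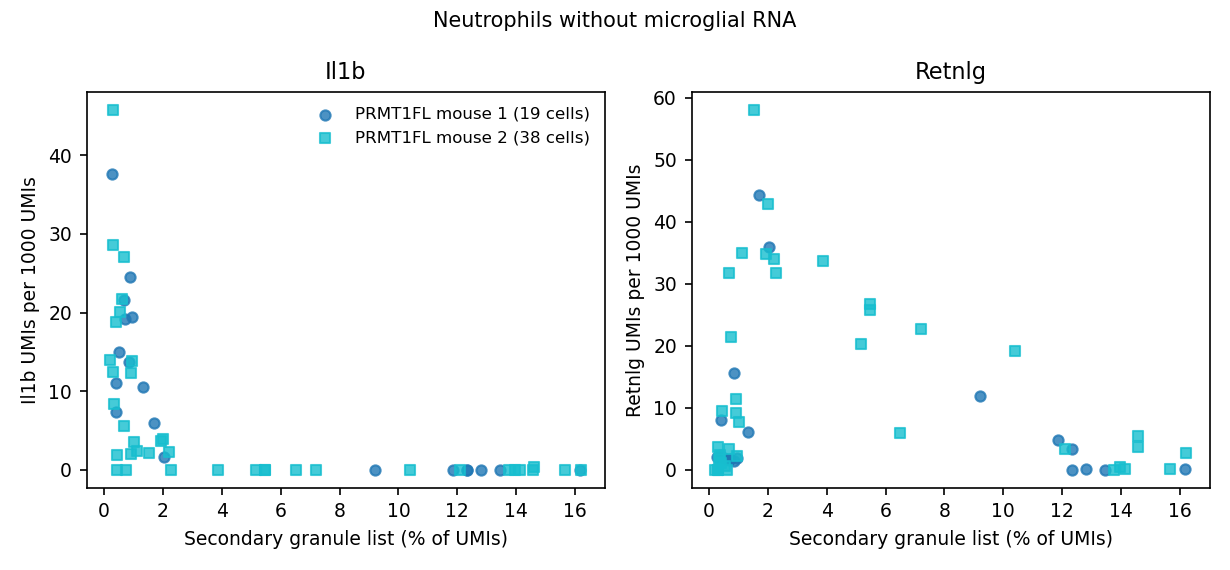
Neutrophils without microglial RNA (19 cells of PRMT1FL mouse 1, circles, and 38 of mouse 2, squares) by the share of UMIs from the secondary granule list (%) and by Il1b (left) or Retnlg (right) UMIs per 1000 UMIs. Il1b is above 10.5 only at a granule share under 1%, and the median of Retnlg is highest at 1 to 4%.

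The rule's own genes, S100a8 and S100a9, together took a median of 16.98% of UMIs (6.47% to 36.5%) in the 25 cells with the least granule RNA. In the other bins the medians were 41.8% (25.3% to 49.4%), 45.8% (39.8% to 52.7%) and 42.8% (34.4% to 48.996%), which overlap one another and in part the first. Depth rose in the order of granule RNA, from a median of 1530 to 3324, 5690 and 9398 UMIs. Only 4 of the 57 cells, all in PRMT1FL mouse 2, had a count of Camp or Ngp between 5 and 19.

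The 22 cells (7 and 15 per mouse) with 10 or more UMIs of both Camp and Ngp and the other 35 were compared gene by gene within each PRMT1FL mouse, as a description of cells divided on 2 of these genes. Of 1135 genes with 20 or more UMIs, 104 were 2-fold or more higher and 262 lower in the 22 cells of both mice. Among the genes not used for the division, Ltf (10666 and 9388 CPM) and Chil3 (6231 and 5140) had no UMI in the 35 cells. At 500 UMIs per cell, where depth is equal, Ltf would be expected in 98.5% and 89.6% of the 22 cells, and Il1b in 96.1% and 78.4% of the 35 against 0% and 1.21% of the 22. Fcnb was found in 6 of the 22 cells, and in those 6 Retnlg did not exceed 5 UMIs. Itgb2l, a granulocyte integrin gene, and Cybb were higher, Cybb at 1262 and 1487 CPM against 0 and 180. Cebpe was higher too, with a mean log2 ratio of 2.24. Mki67, a proliferation gene, was found in 5 of the 22 cells and in none of the 35. The 22 cells were the deeper ones (medians of 6867 and 6797 UMIs against 1534 and 1887), and at 500 UMIs per cell Mki67 would be expected in 0.616% and 4.33% of them. Of the primary granule genes, made earliest, Mpo had no UMI in any neutrophil, and Elane had 7 UMIs, all in 1 cell of PRMT1FL mouse 1. Prtn3 had 11 and 1 UMIs in the neutrophils of the PRMT1FL mice, of 14 and 25 over all their passing cells. The PRMT1Cx3cr1-KO libraries had 4 and 9 Prtn3 UMIs, none of them in a neutrophil. Ms4a3, a gene of granulocyte precursors, had 8 and 4 UMIs in the PRMT1FL neutrophils and 4 in those of PRMT1Cx3cr1-KO mouse 2, with none in any other cell.

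Genes of mature, circulating neutrophils moved the other way. Of 17 mature genes 13 were lower in the 22 cells of both mice and none was higher. Il1b was at 0 and 22.9 CPM in the 22 cells and 13064 and 8487 in the 35, and Ccl6, a CC chemokine gene, at 0 and 68.6 against 3414 and 3363. Cxcr2 was at 95.6 and 137 against 1287 and 981, and Csf3r at 115 and 122 against 1781 and 1561. Ifitm1 and Ifitm2 were lower too, whereas Ifitm6 was higher at 2141 and 3173 against 594 and 1341. The factor genes Cebpb, Cebpd, Junb and Spi1 were all lower in the 22 cells while Cebpe was higher. Mcl1, a survival gene of neutrophils, was at 172 and 244 against 1534 and 1781. Neither Ly6g, Mmp8 nor Pglyrp1 differed 2-fold in both mice.

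Cells with 10 or more Camp and Ngp UMIs made up 36.8% of the neutrophils without microglial RNA in PRMT1FL mouse 1 and 39.5% in PRMT1FL mouse 2. Both mice therefore held both kinds in similar parts, with 38 cells in mouse 2 and 19 in mouse 1. Of the 17 cells with microglial RNA 6 had 10 or more of both genes and 11 did not. No comparison of neutrophil states or neutrophil genes between genotypes was possible, since PRMT1Cx3cr1-KO mouse 1 had no neutrophil and mouse 2 had 2, below the 10 per library set for a test.

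Prmt1, the targeted gene, was barely detected in these cells. It had 4 UMIs among the 253608 UMIs of the 57 neutrophils without microglial RNA, each in a different cell, or 15.8 CPM. In the other cells of the PRMT1FL mice it was at 91.0 and 84.0 CPM. Cx3cr1, whose locus drives the recombinase, had 1 UMI in each of 3 of the 57 cells, against a UMI in 90.8% and 92.7% of the other cells of these mice. Nothing on recombination in neutrophils could be read from counts this low.

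S100a8 and S100a9 outside the neutrophils were rare and uneven. Neutrophils held 99.7% and 99.8% of the S100a8 UMIs of passing cells in the PRMT1FL mice and 94.7% in PRMT1Cx3cr1-KO mouse 2. S100a8 had a UMI in 0.482%, 1.07%, 0.444% and 1.54% of the other cells and S100a9 in 0.289%, 0.837%, 0.0289% and 0.0734%. Thinned to 500 UMIs per cell, the expected shares were 0.0531%, 0.104%, 0.0396% and 0.157% for S100a8. For S100a9 they were 0.0337%, 0.0803%, 0.0181% and 0.0119%. Outside the neutrophils S100a8 outnumbered S100a9 by 1.76 and 1.44 in the PRMT1FL libraries, near the 1.43 and 1.20 within their neutrophils. In the PRMT1Cx3cr1-KO libraries it did so by 17.7 (53 against 3 UMIs) and 25 (225 against 9), although the ratio within the neutrophils of mouse 2 was 1.39. The cells with an S100a8 UMI in PRMT1Cx3cr1-KO mouse 2 numbered 168, and their microglia genes summed to 44063 CPM against 50269 in the cells without one. Their secondary granule genes summed to 0.490 CPM against 1.46. In PRMT1FL mouse 2 these genes summed to 114 CPM in the 87 other cells with an S100a8 UMI against 3.21 in those without, in PRMT1FL mouse 1 to 8.07 against 3.26 and in PRMT1Cx3cr1-KO mouse 1 to 1.83 against 1.89. In the 87 cells the monocyte genes summed to 515 CPM against 175, and the border macrophage genes to 111 against 52.3. The monocyte gate of that mouse held 14 of the 104 S100a8 UMIs outside neutrophils. In PRMT1FL mouse 1 and PRMT1Cx3cr1-KO mice 1 and 2 monocyte genes were at 294 against 217, 222 against 309 and 193 against 319. Border macrophage genes there were at 17.8 against 49.5, 58.6 against 52.5 and 79.9 against 123.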

How the data were processed

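The authors aligned reads to the mm10 genome with Cell Ranger 3.1.0 and deposited UMI counts for 32285 genes per barcode, unfiltered by the study's own limits, which were applied here (200 to 6000 genes, at most 10% mitochondrial UMIs). Barcodes shared between 2 libraries numbered 31 to 46 per pair, none of a neutrophil. Members and gene lists were chosen with earlier results of these data known. Levels are CPM of UMI sums over cells, with log2 ratios after adding 10 CPM, over genes with enough counts (20 UMIs in neutrophils or 20 CPM in the other cells). Named genes were the 25 highest and 10 lowest by mean log2 ratio among those 2-fold higher or lower in every library, and members of the lists. Shares carry exact binomial intervals, which cover counting error only, and an exact permutation test over mice. Genotypes were compared with edgeR 4.0.16 (quasi-likelihood, TMM, filterByExpr) on library sums, and with DESeq2 1.42.0 as an alternative, in R 4.3.3. Both procedures were tested on simulated data with 200 changed genes. Scrublet was run in scanpy 1.11.5. Of the mature list, 18 of 20 genes are in the files. Sequences are from RefSeq and positions from GENCODE M21. One gene of the lists is counted but not reported here.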

Additional observations from a re-analysis of the deposited data

How the results depend on the processing

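The share of neutrophils was higher in PRMT1FL under each alternative. The difference was 0.394 percentage points with 2 or more UMIs of each gene, 0.388 with 10 or more, 0.266 for the Retnlg and Csf3r gate and 0.316 without cells holding microglial RNA, and it ranged from 0.210 to 0.566 with each library left out in turn. A limit of 5% mitochondrial UMIs gave 0.404, and one of 500 genes 0.384. With the replicate number as a block, the mean log2 ratio of PRMT1FL over PRMT1Cx3cr1-KO was 3.94 with the share of 0 set at the floor of 3 cells, and 2 pairs cannot give an exact p below 0.5. Nothing shows that the numbers pair the mice (r = 0.117 between the genotypes' differences).

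The count of higher genes (159) fell to 47 with a pseudocount of 100 CPM. Without cells holding microglial RNA, which also drops PRMT1Cx3cr1-KO mouse 2, it was 387, against 369 in the same 2 libraries with them. Leaving out each library gave 99 to 369 higher and 607 to 796 lower genes. The count of lower genes (346) was 577 with a pseudocount of 1, 36 with 100, 2093 without cells holding microglial RNA (796 in the same 2 libraries with them) and 879 as a mean over cells. All 35 named genes kept their direction, and 9 were no longer 2-fold in every library with a pseudocount of 100.

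On sums over all passing cells 555 of 14757 genes were lower in PRMT1Cx3cr1-KO with edgeR. Alternatives chosen after seeing the data gave 723 with DESeq2, 648 with library sums as size, 1355 with every gene kept, 910 with the replicate block and 621 without the neutrophils. Leaving out each library, with the lone mouse assumed to vary like the other genotype, gave 0 to 2203. Genes higher in PRMT1Cx3cr1-KO numbered 194 with edgeR, 492 with DESeq2 and 304 with library sums as size. They numbered 762 with every gene kept, 463 with the replicate block and 261 without the neutrophils. Without the neutrophils the rule's genes, given with no test, stood at log2 fold changes of 0.51 (S100a8, reversed) and -3.32 (S100a9). The planned tests of neutrophil genes between genotypes were not run, with 0 and 2 neutrophils in the PRMT1Cx3cr1-KO mice. With 2 mice per genotype, p-values measure the spread of 2 animals, and 74 cells limit all levels.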

Other observations

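Beyond the lists, the 22 neutrophils with 10 or more Camp and Ngp UMIs and the other 35 differed in other named genes in both PRMT1FL mice. The following were taken from the 25 largest differences in each direction. Lta4h, the enzyme that makes leukotriene B4, was at 421 and 259 CPM in the 22 cells and had no UMI in the 35. Hist1h2ap, a histone gene, was at 38.2 and 1228 and also had none in the 35, so that its level differed widely between the mice. Orm1, an acute-phase glycoprotein gene, was at 153 and 175 against 0 and 0. In the other direction Ptgs2, the inducible cyclooxygenase, was at 594 and 560 CPM in the 35 cells and had no UMI in the 22. Wfdc17 was at 1138 and 841 against 0 and 0, and Cxcl2, a chemokine gene that draws neutrophils, at 198 and 1421 against 0 and 83.9.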
